A study of Mus musculus with 2 samples.

Results

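The cells described are liver macrophages that carry transcripts of Atp6v0d2, a subunit of the vacuolar proton pump, of Mmp12, the macrophage metalloelastase, or of both. They were chosen by a gate on raw UMI counts (unique molecular identifiers, each of which stands for 1 captured RNA molecule). A cell had at least 20 UMIs over the complement genes C1qa, C1qb and C1qc, at least 5 UMIs over Atp6v0d2 and Mmp12 together, and no UMI of the Kupffer cell genes Clec4f and Timd4. It also had no Cd3d, Cd3e or Cd3g UMI, at most 2 UMIs over the B cell genes Cd79a, Cd79b and Ms4a1, and at most 3 over the endothelial genes Stab2, Clec4g and Ptprb. Of 24655 barcodes, 214 met the gate. They are called Atp6v0d2/Mmp12 macrophages below.

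Single non-parenchymal liver cells, which are the liver cells other than hepatocytes, were sequenced from mice that received carbon tetrachloride (CCl4) by intraperitoneal injection over 8 weeks. CCl4 injures hepatocytes and causes fibrosis. The 2 groups were Mfap2+/+ and Mfap2-/- mice, the latter lacking the microfibril glycoprotein Mfap2, with 1 library each, and both groups received CCl4. The labels give neither the age of the mice nor the number of animals behind a library, and uninjured livers were not analysed here. As each genotype has a single library, the genotypes cannot be tested against each other, and genotype, animal and library preparation cannot be told apart. All intervals are 95% intervals for counting error only.

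Scar-associated macrophages, also described as lipid-associated macrophages, gather in injured and fibrotic liver and are known for Trem2, Gpnmb, Cd9 and Spp1. Trem2 is a surface receptor for lipids and cell debris, and Gpnmb is a transmembrane glycoprotein of late endosomes and lysosomes. Atp6v0d2 is best known from osteoclasts, where the proton pump acidifies the space over bone, and in macrophages it serves lysosomal acidification. Mmp12 cleaves elastin and other matrix proteins.

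The Mfap2+/+ library held 11783 barcodes and 82499307 UMIs, and the Mfap2-/- library held 12872 barcodes and 118226367 UMIs. Mfap2 itself had 257 UMIs in the first and 4 in the second. The libraries shared 40 barcode sequences, and 1 of the Atp6v0d2/Mmp12 macrophages carried such a barcode. A filter for 200 or more genes and for mitochondrial UMIs of no more than 20% left 11370 and 12723 cells.

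On mouse build GRCm38 (GENCODE M21), Atp6v0d2 (ENSMUSG00000028238) lies on the reverse strand at chr4:19876841-19922605 and Mmp12 on the forward strand at chr9:7344381-7369499. Mmp1b overlaps Mmp12 on the opposite strand, and whether the counting used strand is not given in the sources used here. Gpnmb (ENSMUSG00000029816) lies at chr6:49036546-49070929 and Trem2 at chr17:48346401-48354147, both on the forward strand. All 4 are protein-coding genes. The next lines give the 250 bases before a RefSeq start site of 3 of the 4 marker genes (GRCm38.p6, forward strand), because these genes define or mark the cells.

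Mmp12, chr9:7347124-7347373: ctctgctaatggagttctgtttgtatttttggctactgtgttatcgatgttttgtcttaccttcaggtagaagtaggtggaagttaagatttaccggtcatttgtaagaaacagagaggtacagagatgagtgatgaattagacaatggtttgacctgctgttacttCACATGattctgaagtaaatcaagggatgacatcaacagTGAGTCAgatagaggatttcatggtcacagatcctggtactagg
Trem2, chr17:48346151-48346400: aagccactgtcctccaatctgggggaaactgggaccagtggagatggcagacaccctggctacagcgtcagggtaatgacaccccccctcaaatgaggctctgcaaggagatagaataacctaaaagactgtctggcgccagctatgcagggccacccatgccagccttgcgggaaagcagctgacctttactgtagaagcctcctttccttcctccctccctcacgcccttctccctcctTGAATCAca
Gpnmb, chr6:49036268-49036517: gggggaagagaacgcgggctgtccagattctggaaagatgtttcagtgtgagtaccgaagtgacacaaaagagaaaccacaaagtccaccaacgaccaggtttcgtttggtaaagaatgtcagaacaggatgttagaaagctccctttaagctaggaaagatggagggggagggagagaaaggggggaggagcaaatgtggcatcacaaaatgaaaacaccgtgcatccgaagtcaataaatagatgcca

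Capitals mark matches, on either strand, to CACGTG or CATGTG, letters that factors of the Mitf and Tfeb family bind. They also mark TGANTCA, a loose form of the letters of AP-1 in which N is any base. Whether a factor binds any of these matches was not tested. CATGTG reads CACATG on the opposite strand. The Mmp12 window shown holds CACATG 83 bases and TGAGTCA 44 bases before the start, and the window of the other Mmp12 start in the table holds no match. Trem2 holds TGAATCA 9 bases before its start, and the Gpnmb window holds none of these letters. Of all 32851 such 250-base windows in the promoter table, 6.02% hold CACGTG, 12.3% CATGTG and 6.75% TGANTCA. Counted by gene, 6.86% of 27025 genes hold CACGTG before at least 1 start, 13.8% CATGTG and 7.82% TGANTCA.

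The Mfap2+/+ library held 127 Atp6v0d2/Mmp12 macrophages among 11370 cells, 1.12% (0.932% to 1.33%, Clopper-Pearson). The Mfap2-/- library held 87 among 12723, 0.684% (0.548% to 0.843%). The log2 ratio of these shares, Mfap2-/- over Mfap2+/+, was -0.71 (-1.12 to -0.30). Among all macrophages that passed the C1q and lineage gates they made up 7.52% of 1689 cells (6.31% to 8.88%) in Mfap2+/+ and 5.58% of 1560 cells (4.49% to 6.83%) in Mfap2-/-, a log2 ratio of -0.43 (-0.84 to -0.03). The lower share in Mfap2-/- was thus closer to the Mfap2+/+ share when counted within macrophages. The Mfap2-/- cells were the deeper ones, with a median of 14804 UMIs per cell (3393 to 31328) against 11104 (2359 to 36482).

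Further macrophages with Atp6v0d2 or Mmp12 UMIs lay just outside the gate. Requiring no Clec4f or Timd4 UMI left out 91 Mfap2+/+ and 56 Mfap2-/- macrophages with 5 or more Atp6v0d2 and Mmp12 UMIs, 41.7% and 39.2% of all such macrophages. These excluded cells carried the marker genes too: Gpnmb stood at 987 counts per 1000000 UMIs (CPM) in Mfap2+/+ and 1908 CPM in Mfap2-/-, and Fabp5 at 1426 and 2041 CPM. They also held more Cd5l, a secreted Kupffer cell protein, at 3941 and 2427 CPM against 1357 and 991 CPM in the gated cells. Gated cells held 38.5% of the Atp6v0d2 UMIs of all filtered cells in Mfap2+/+ and 23.9% in Mfap2-/-. For Mmp12 these shares were 32.2% and 22.5%, so in both libraries most UMIs of these genes lay outside the gated cells. At the threshold, the 12 Mfap2+/+ macrophages with exactly 5 Atp6v0d2 and Mmp12 UMIs had 294 CPM Gpnmb and the 13 with 4 had 1490 CPM, while the 11 and 11 in Mfap2-/- had 2403 and 1550 CPM.

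**Figure D1:**
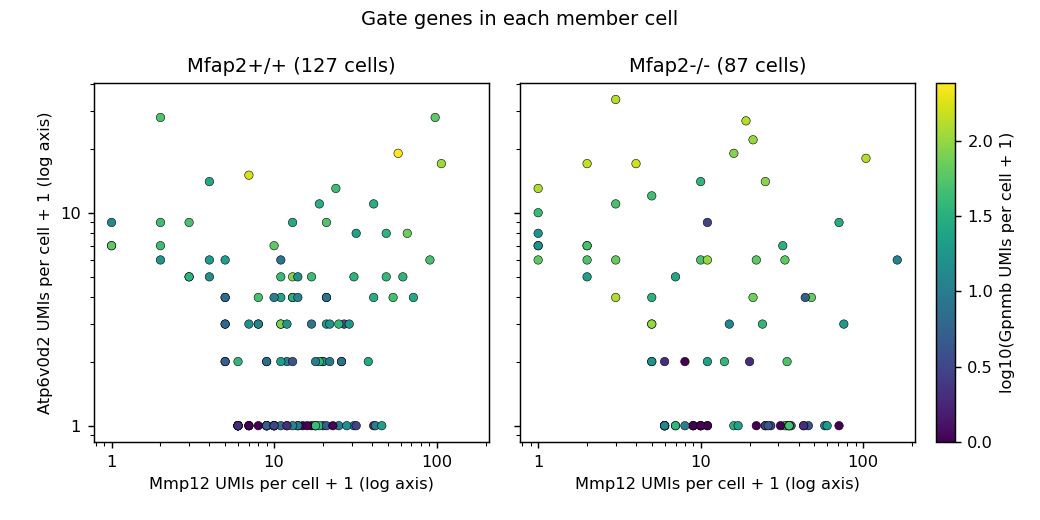
Each point is an Atp6v0d2/Mmp12 macrophage (127 Mfap2+/+, 87 Mfap2-/-), placed by its Mmp12 UMIs (x, plus 1, log axis) and Atp6v0d2 UMIs (y, plus 1, log axis) and coloured by log10 of Gpnmb UMIs plus 1. The bottom row holds the 48 and 38 cells without an Atp6v0d2 UMI, most of them dark, while cells higher up are mostly bright.

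The plot of gate genes per cell shows that Mmp12 brought most cells into the gate. Mmp12 UMIs per cell ranged from 0 to 106 with a median of 11 in Mfap2+/+, and from 0 to 161 with a median of 10 in Mfap2-/-. Atp6v0d2 ranged from 0 to 27 with a median of 1, and from 0 to 33 with a median of 1. An Atp6v0d2 UMI was found in 79 of 127 cells, 62.2%, and in 49 of 87, 56.3%. Both genes were found in 76 and 43 cells, and 3 and 6 cells had no Mmp12 UMI. B cells, which should lack both genes, had an Atp6v0d2 UMI in 1.48% and 1.37% of cells and an Mmp12 UMI in 4.83% and 6.05%, at median depths of 4000 and 5318.5 UMIs.

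As summed UMIs, Atp6v0d2 stood at 251 CPM (226 to 278) in the Mfap2+/+ cells and 265 CPM (238 to 294) in the Mfap2-/- cells, and Mmp12 at 1458 (1398 to 1520) and 1300 CPM (1240 to 1363). These levels chose the cells and are a description. Gpnmb and Trem2 were not used by the gate. Gpnmb UMIs per cell ranged from 0 to 239 with a median of 14 in Mfap2+/+ and from 0 to 157 with a median of 20 in Mfap2-/-, and 114 of 127 and 73 of 87 cells had at least 1. Trem2 ranged from 0 to 69 with a median of 8, and from 0 to 41 with a median of 10.

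The comparison group was the macrophages that passed every other gate but had no Atp6v0d2 and no Mmp12 UMI, 703 in Mfap2+/+ and 710 in Mfap2-/-, called negative macrophages below. Their median depth was 10093 and 11578.5 UMIs, so the gated cells were the deeper group in both libraries. Gpnmb was at 1859 CPM (1790 to 1928) in the gated Mfap2+/+ cells against 286 CPM in negative macrophages, 6.49-fold. In Mfap2-/- it was at 2257 CPM (2177 to 2340) against 353 CPM, 6.40-fold. Trem2 was 1.87-fold and 1.99-fold higher, at 933 and 834 CPM in gated cells against 499 and 419 CPM. Both libraries thus showed the same order for both genes, and Trem2 was present in most negative macrophages too, with a UMI in 89.9% and 88.3% of them.

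Over all genes outside the gate with at least 20 UMIs, 174 of 11319 were past 2-fold higher in gated cells than in negative macrophages in both libraries, a background of 1.54%. Another 107, or 0.945%, were past 2-fold lower in both. The Mfap2+/+ library alone gave 509 genes past 2-fold higher and the Mfap2-/- library 495, and the 174 genes were 34.2% of the first list and 35.1% of the second. The median log2 ratio of all genes was 0.00 in Mfap2+/+ and 0.04 in Mfap2-/-. The log2 ratio is taken with 1 count added to each sum. Of the 174 genes, 131 had a start in the promoter table. In the 250 bases before at least 1 start, 10.7% of these held CACGTG, 10.7% CATGTG and 6.87% TGANTCA. The 8879 genes compared that were matched gave 10.1%, 9.17% and 5.65%.

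Of 14 scar-associated genes compared, 8 were past 2-fold higher in both libraries and none was past 2-fold lower, with median log2 ratios of 1.24 and 1.41. This list was chosen with results of these data known. Beside Gpnmb it held Fabp5, a fatty acid binding protein, at 1974 CPM (1904 to 2046) in Mfap2+/+ and 1977 CPM (1902 to 2054) in Mfap2-/-, with log2 ratios of 2.16 (2.08 to 2.23) and 2.34 (2.27 to 2.42). Lgals3, which encodes galectin-3, had log2 ratios of 2.05 and 1.69, and the tetraspanin gene Cd63 1.56 and 1.59. Spp1, the gene of the matrix protein osteopontin, had 1.17 and 1.05. The tetraspanin gene Cd9 was past 2-fold in Mfap2+/+ (1.31) but not in Mfap2-/- (0.76), and Mmp14, a membrane-bound collagenase, was not higher in either (-0.74 and -0.10).

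By the ranking on the smaller effect of the libraries, Fat3, an atypical cadherin, came first, at 164 CPM (144 to 186) and 164 CPM (143 to 188) against 21.7 and 22.1 CPM, 7.54-fold and 7.44-fold. It was followed by Gpnmb, by Pmp22, a membrane protein of myelin and other cells, with log2 ratios of 2.32 and 2.48, by Fabp5 and by the synaptogyrin gene Syngr1 with 2.16 and 2.40. The others of the 15 were Apbb2, Airn, Anxa1, Fbxo32, Gyg, Lgals3, Aopep, Gpr137b, Cd63 and Timp2. Anxa1, the annexin with anti-inflammatory action, had 2.60 and 1.80, and Fbxo32, a ubiquitin ligase subunit, 2.37 and 1.72. Timp2, an inhibitor of metalloproteinases, had 1.59 and 1.49. Airn, an antisense RNA, lies opposite Igf2r, and Syngr1 overlaps Rpl3 on the opposite strand, so these values are uncertain unless strand was used in counting.

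**Figure D2:**
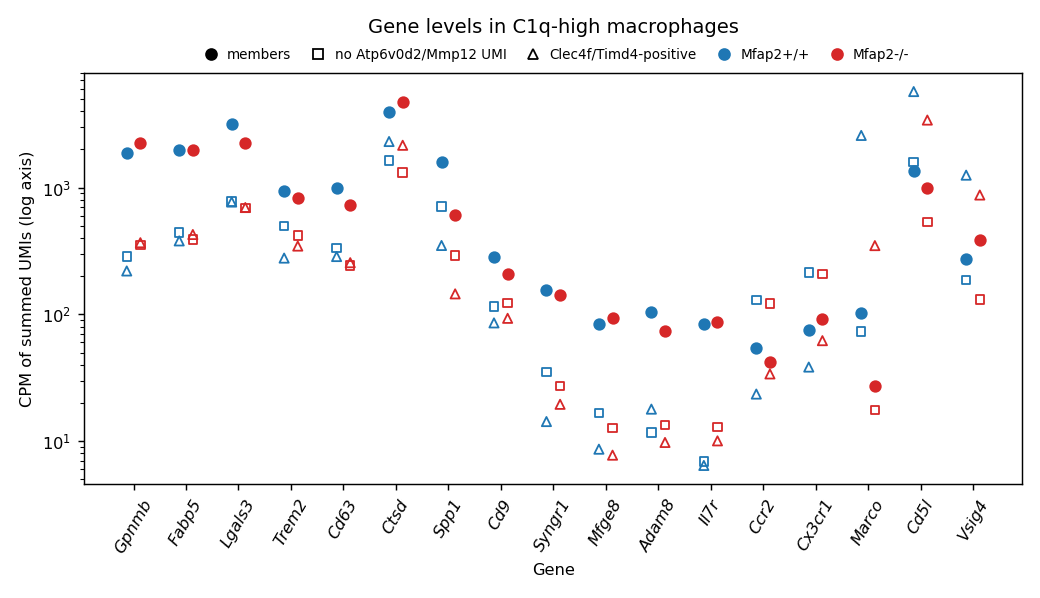
CPM of summed UMIs (log axis) in the gated cells (filled circles), in macrophages with no Atp6v0d2 or Mmp12 UMI (open squares) and in macrophages with 3 or more Clec4f and Timd4 UMIs (open triangles), Mfap2+/+ in blue and Mfap2-/- in red. From Gpnmb to Il7r the filled circles lie above the squares of the same library. Ccr2 and Cx3cr1 show the opposite, and Marco, Cd5l and Vsig4 are highest in the triangles.

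Genes of matrix degradation other than Mmp12, a list that holds inhibitors as well as enzymes, were split. Of 18 compared, 4 were past 2-fold higher in both libraries and none was past 2-fold lower, while the list's medians were 0.02 and -0.05. The 4 were Adam8, a membrane protease of leukocytes (log2 ratios 3.15 and 2.47), Mmp19 (2.84 and 2.12), Mmp13, a collagenase (2.23 and 1.18), and Timp2. Adam8 stood at 104 CPM (88.7 to 122) and 74.3 CPM (60.3 to 90.6). Mmp9 had 4.62 and 3.03 CPM, too few UMIs for the comparison between genotypes.

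Of 16 other subunit and accessory genes of the proton pump, only Atp6v1b2, a subunit of the catalytic head, was past 2-fold higher in both libraries, at 279 CPM (253 to 307) against 123 and 212 CPM (188 to 239) against 105, and the list's medians were 0.23 and 0.27. Atp6v0d1, the widely expressed form of the same subunit, had log2 ratios of -0.01 and -0.29. Of 15 osteoclast-type genes compared, none was past 2-fold in both libraries. Acp5, the tartrate-resistant acid phosphatase of osteoclasts, stood at 395 CPM in gated cells against 437 in negative macrophages in Mfap2+/+ and at 306 against 228 CPM in Mfap2-/-. Ctsk, the collagen-cleaving cathepsin of osteoclasts, had 25 UMIs in the Mfap2+/+ cells and 5 in the Mfap2-/- cells. Oscar, Calcr and Siglec15 had no UMI in the gated cells, for which 3 UMIs would be the limit.

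Lysosome genes were slightly higher as a list, with medians of 0.31 and 0.59 over 25 genes, and 2 were past 2-fold in both libraries. These were the protease genes Ctsd, at 3907 CPM (3808 to 4007) and 4728 CPM (4612 to 4847) with log2 ratios of 1.25 and 1.85, and Ctsl, with 2.05 and 1.16. The lysosomal membrane gene Cd68 was just short of 2-fold in Mfap2+/+ and past it in Mfap2-/- (0.99 and 1.04). Among 20 lipid-handling genes, 3 were past 2-fold higher in both: Fabp5, Fabp4 (1.76 and 1.83) and the fatty acid transporter gene Cd36 (1.76 and 1.14). Lpl, lipoprotein lipase, had 0.77 and 1.71, and Apoe, an apolipoprotein, 0.22 and 0.07.

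Of 20 genes for fibrogenic and tissue-repair ligands, the 2 past 2-fold higher in both were Spp1 and Lgals3. Pdgfb, a growth factor for hepatic stellate cells, had log2 ratios of 0.58 and 0.47, and Tgfb1, the main fibrogenic cytokine gene, -0.36 and -0.11. Mfge8, which bridges dying cells to phagocytes, was the 1 of 20 phagocytosis genes past 2-fold in both (2.32 and 2.87). It was found in only 24 Mfap2+/+ and 20 Mfap2-/- cells. Il7r, the interleukin-7 receptor gene, which stood in the list of T and NK cell markers, was higher with 3.58 (3.12 to 4.10) and 2.75 (2.36 to 3.14), at 83.9 and 87.2 CPM in gated cells. Arg1, arginase, had 4.18 and 2.15.

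Some genes of blood monocytes stood among the lower ones. The monocyte list had medians of -0.09 in Mfap2+/+ and -0.89 in Mfap2-/-, so as a whole it was lower chiefly in Mfap2-/-. Of 15 monocyte genes, 4 were past 2-fold lower in both libraries: Ccr2, the receptor for the chemokine Ccl2 (-1.24 and -1.49), Cx3cr1, the fractalkine receptor (-1.49 and -1.17), Plac8 (-1.07 and -1.20) and Ms4a4c (-1.55 and -1.76). F13a1, coagulation factor XIII, went the other way (1.69 and 1.41). Cx3cr1 overlaps several genes on its own strand. The lowest ratio by rank was that of Adgb, the androglobin gene (-1.70 and -1.57), followed by Marcksl1 (-1.52 and -1.28), Ly6a (-1.27 and -1.31) and Adgre4 (-1.64 and -1.26). Antigen presentation genes of MHC class II had medians of -0.51 and -0.33, and none of 10 was past 2-fold in both libraries.

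**Figure D3:**
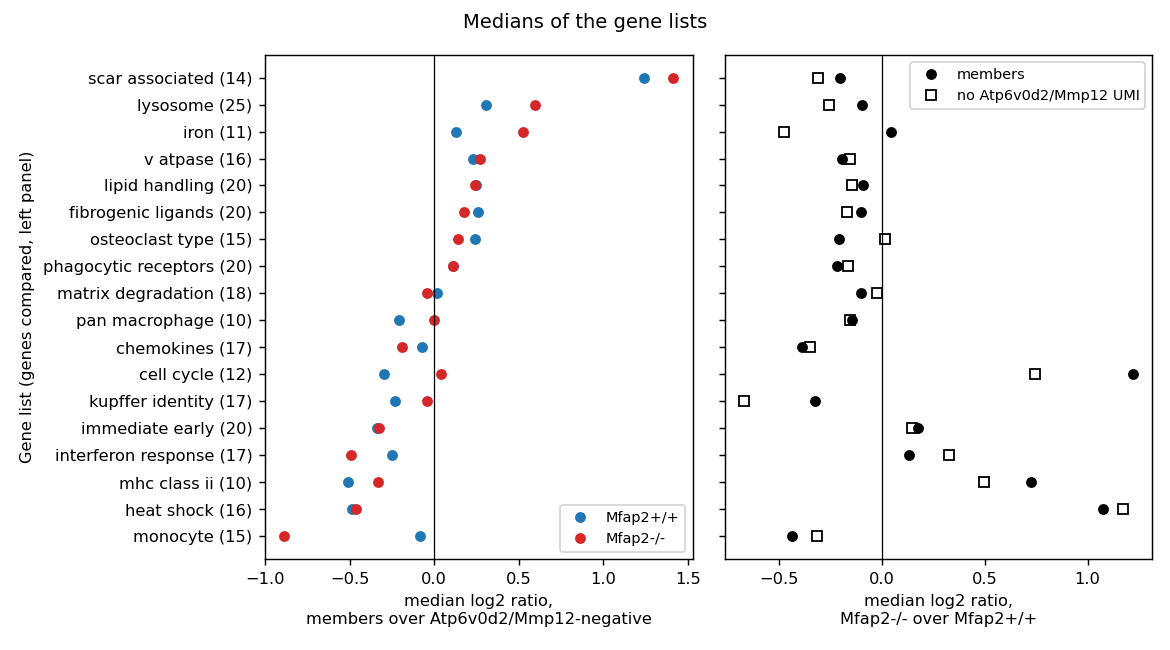
Medians of the log2 ratio over the genes of each functional list (marker lists of other cell types are not drawn), with the number of genes compared in brackets. Left, gated cells over negative macrophages in Mfap2+/+ (blue) and Mfap2-/- (red), where the scar-associated list lies at 1.24 and 1.41 and the other lists drawn between -0.89 and 0.59. Right, Mfap2-/- over Mfap2+/+ in gated cells (filled circles) and in negative macrophages (open squares), where the cell cycle (1.22 and 0.74) and heat shock (1.07 and 1.17) lists lie highest of those drawn.

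Against macrophages with 3 or more Clec4f and Timd4 UMIs (385 in Mfap2+/+, 247 in Mfap2-/-), which carry the Kupffer cell genes of the gate, 15 of 18 Kupffer identity genes were past 2-fold lower in both libraries. The background for lower was 2.63% of 10028 genes, and 2.12% were higher. As both groups were chosen by their Clec4f and Timd4 UMIs, this contrast follows in part from that choice and is a description. Marco, a scavenger receptor, stood at 102 CPM (86.3 to 119) in gated Mfap2+/+ cells against 2575 CPM. In Mfap2-/- it stood at 27.3 CPM (19.1 to 37.8) against 348. Against negative macrophages the same list had 1 of 17 genes past 2-fold lower, Adgre4, and Vsig4, a complement receptor, had log2 ratios of 0.54 and 1.55. Of the Clec4f/Timd4-positive macrophages, 15.6% in Mfap2+/+ and 9.31% in Mfap2-/- had 5 or more Atp6v0d2 and Mmp12 UMIs.

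The gated cells themselves differed by Atp6v0d2. Gpnmb stood at 2621 CPM in the 79 Mfap2+/+ cells with an Atp6v0d2 UMI and at 529 CPM in the 48 without, a log2 ratio of 2.30 (2.13 to 2.49). In Mfap2-/- it stood at 3409 CPM in 49 cells and 611 CPM in 38, a log2 ratio of 2.48 (2.31 to 2.65). The cells with and without an Atp6v0d2 UMI had median depths of 11429 and 11030 UMIs in Mfap2+/+ and of 15530 and 14207 in Mfap2-/-. As Atp6v0d2 is a gate gene, this split is a description. Gpnmb UMIs per cell overlapped between the 2 sets: with Atp6v0d2 they ranged from 0 to 239 (median 24) in Mfap2+/+ and from 0 to 157 (median 46) in Mfap2-/-, and without it from 0 to 41 (median 2) and from 0 to 45 (median 2.5). The 86 cells held in the gate by Mmp12 alone had 1.85-fold the Gpnmb level of negative macrophages in Mfap2+/+ and 1.73-fold in Mfap2-/-, and their Trem2 level, 468 and 455 CPM, was close to the 499 and 419 CPM there.

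Between the cells with and without Atp6v0d2, 103 of 6118 genes compared were past 2-fold higher in both libraries, 1.68%, and 89 were past 2-fold lower, 1.45%. In the scar-associated list 6 of 14 genes were past 2-fold higher and none was lower. Fabp5 had log2 ratios of 1.90 and 1.83, Spp1 1.89 and 1.55, Trem2 1.36 and 1.27, and the lipid genes Cd36 1.23 and 1.33 and Lpl 1.17 and 1.02. Mfge8 was the highest by rank, with 3.54 (2.53 to 5.44) and 3.01 (2.17 to 4.31). It stood at 126 and 147 CPM with Atp6v0d2 and at 9.06 and 16.6 CPM without. Among the other genes high by rank were Gyg, a glycogenin gene (2.26 and 2.92), Ctsl (2.25 and 1.98) and Slc7a2, a transporter of cationic amino acids including arginine (2.21 and 4.86).

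The cells without Atp6v0d2 carried more MHC class II. Of 7 class II genes compared, 4 were past 2-fold lower in the cells with Atp6v0d2 and none was higher, with medians of -1.76 and -1.63 against -0.02 and 0.04 over all genes. H2-Eb1 stood at 576 CPM with Atp6v0d2 and 2544 CPM without in Mfap2+/+, and at 1041 and 4341 CPM in Mfap2-/-. Cd74, the invariant chain, had log2 ratios of -1.87 and -1.63. Ccr2 had -1.43 (-2.13 to -0.78) and -3.16 (-4.71 to -2.17), and Cxcl10, an interferon-induced chemokine gene, -1.76 and -2.31. Heat shock genes were lower with Atp6v0d2 as well, 6 of 16 past 2-fold in both libraries, with Bag3 at -2.01 and -1.62. C1qa, one of the gate genes, differed little (-0.14 and 0.12).

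**Figure D4:**
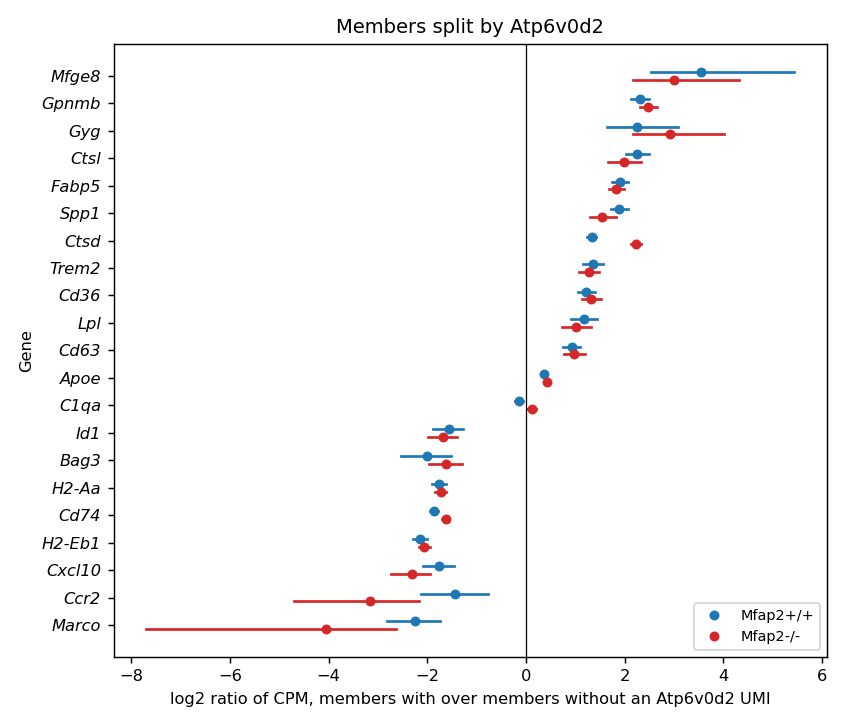
Log2 ratio of CPM between gated cells with and without an Atp6v0d2 UMI, Mfap2+/+ in blue (79 and 48 cells) and Mfap2-/- in red (49 and 38 cells), with 95% counting intervals as lines. Genes from Mfge8 to Cd63 lie right of 0 and genes from Id1 to Marco left of 0 in both libraries.

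Levels also differed with the number of gate UMIs. As these UMIs chose the cells, this is a description. Median depths of the 3 gated classes were 10684.5, 10506 and 12219 UMIs in Mfap2+/+ and 13897.5, 13758.5 and 15294 in Mfap2-/-. In Mfap2+/+, Gpnmb stood at 604 CPM in macrophages with 1 to 4 Atp6v0d2 and Mmp12 UMIs, at 1127 with 5 to 9, at 1814 with 10 to 19 and at 2535 with 20 or more. The corresponding Mfap2-/- levels were 635, 1799, 3305 and 2184 CPM. The order held from negative macrophages to 10 to 19 UMIs in both libraries and ended there in Mfap2-/-, where that class held 16 cells. Spp1 was at 431, 981 and 3050 CPM over the 3 gated classes in Mfap2+/+ and at 473, 812 and 620 CPM in Mfap2-/-. Below the gate it was at 708 CPM in negative Mfap2+/+ macrophages and 1483 CPM in those with 1 to 4 UMIs. Both lay above the first gated class, so Spp1 did not rise steadily there. In Mfap2+/+, 1 negative macrophage held 1452 of the 5222 Spp1 UMIs of its group. Of the 2408 Spp1 UMIs in gated Mfap2+/+ cells, 1 cell with 20 or more gate UMIs held 504. The Mfap2-/- levels of Spp1 below the gate were 291 and 284 CPM.

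Between the genotypes, Gpnmb had a log2 ratio of Mfap2-/- over Mfap2+/+ of 0.28 (0.21 to 0.36), Trem2 of -0.16 (-0.28 to -0.05), Fabp5 of 0.00 (-0.07 to 0.08) and Fat3 of 0.01 (-0.26 to 0.28). Of 8725 genes compared, 387 (4.44%) were past 2-fold higher in Mfap2-/- and 284 (3.26%) past 2-fold lower, with a median of 0.07. At a minimum of 100 UMIs, 74 of 3943 genes (1.88%) were higher and 56 (1.42%) lower. Without the 5 richest cells per gene the counts ran up to 596 (6.83%) and 467 (5.35%) of 8725. In the scar-associated list none of 14 genes was past 2-fold higher and 1 was past it lower, Spp1, with a list median of -0.20. Of the 14 genes, 4 had a ratio above 0. Lgals3 had -0.52 (-0.59 to -0.46), Cd9 -0.45 (-0.67 to -0.23) and Cd63 -0.43 (-0.55 to -0.31), while Plin2, a lipid droplet coat protein gene, had 0.55 (0.47 to 0.64). No gene of the proton pump, lipid or iron lists was past 2-fold. The lysosome list had 1 lower gene of 25, Ctsl.

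Spp1 differed most among the scar-associated genes. It stood at 1590 CPM (1527 to 1655) in Mfap2+/+ and 604 CPM (562 to 647) in Mfap2-/-, a log2 ratio of -1.40 (-1.51 to -1.28). Per cell the median was 3 UMIs in Mfap2+/+ and 4 in Mfap2-/-, and the highest cell had 504 against 67. The 5 richest cells held 56.1% of the Mfap2+/+ UMIs, and without the 5 richest per library the ratio was -0.82. Negative macrophages had -1.28, from 708 and 291 CPM. There, too, few cells weighed: 1 Mfap2+/+ cell held 1452 of 5222 Spp1 UMIs and 1 Mfap2-/- cell 528 of 2487. Their median was 1 UMI in both libraries. At equal depth of 5000 UMIs, 51.1% and 51.8% of negative macrophages had a Spp1 UMI. A Spp1 UMI was found in 82.7% and 93.1% of gated cells, and in 42.7% and 51.9% of B cells, which give the background of such shares. The gated cells were deeper than the B cells. Among cells with at least 5000 UMIs, thinned to 5000, the gated shares were 74.4% (65.5% to 82.0%) and 67.9% (56.8% to 77.6%). The higher gated share in Mfap2-/- was thus not seen at equal depth. B cell shares were then 45.9% and 43.7%. All other filtered cells together had 1102 CPM Spp1 in Mfap2+/+ and 910 CPM in Mfap2-/-, the latter above the gated Mfap2-/- cells.

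Arg1, which turns arginine into ornithine, stood at 199 CPM (177 to 223) in Mfap2+/+ and 44.7 CPM (34.1 to 57.7) in Mfap2-/-, a log2 ratio of -2.13 (-2.58 to -1.75). It was found in 54 of 127 and 22 of 87 cells. Negative macrophages had 10.8 and 10.2 CPM, a ratio of -0.09. Macrophages with 3 or more Clec4f and Timd4 UMIs had 44.8 and 4.88 CPM, a ratio of -3.12, so the lower Arg1 level in Mfap2-/- was seen in them as well. The Arg1 ratio ranged from -2.56 to -1.79 over 13 alternative settings. Ctsl stood at 1113 and 441 CPM, a ratio of -1.33 (-1.47 to -1.20), and had -0.44 in negative macrophages and -0.14 in Clec4f/Timd4-positive ones. Its 5 richest Mfap2+/+ cells held 51.9% of its UMIs there, and without the 5 richest per library the ratio was -0.76.

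Other genes low in Mfap2-/- by rank were Cited2, a transcriptional regulator (-1.15), Hilpda, a lipid droplet protein gene (-1.14), Ninj1, which takes part in membrane rupture at cell death (-1.12), Ube2q2 (-1.09), the lincRNA Gm10076 (-1.07) and Sarnp (-1.06). Ninj1 had -1.22, Hilpda -0.93 and Gm10076 -1.11 in negative macrophages. The 5 richest Mfap2+/+ cells held 56.8% of the Ube2q2 UMIs, and the Ube2q2 ratio ran from -1.56 to -0.51 over 13 alternative settings. Sarnp overlaps Dnajc14 on the same strand, and without its 5 richest cells per library its ratio was -0.37. The lowest, complement C3, had -2.52 (-3.02 to -2.10), with 208 and 35.6 CPM. Its 5 richest Mfap2+/+ cells held 86.7% of the UMIs, and without the cells that had over 5 UMIs of mesenchymal marker genes the ratio was 0.06.

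**Figure D5:**
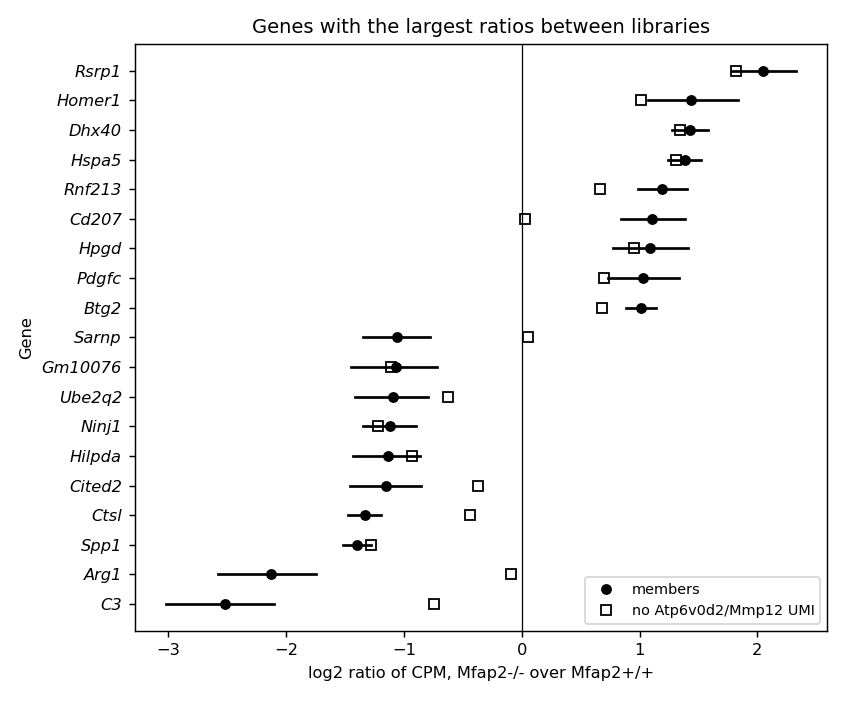
Log2 ratio of CPM, Mfap2-/- over Mfap2+/+, of genes highest and lowest by rank in the gated cells (filled circles, lines are 95% counting intervals), with the ratio of the same gene in negative macrophages (open squares). Arg1 lies at -2.13 in gated cells and -0.09 in negative macrophages, while Rsrp1, Hspa5, Spp1 and Ninj1 lie near their squares.

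The highest ratio was that of Rsrp1, an arginine- and serine-rich protein gene, at 97.1 CPM (82.0 to 114) in Mfap2+/+ and 403 CPM (370 to 439) in Mfap2-/-, a log2 ratio of 2.05 (1.79 to 2.33). Homer1 had 1.44, the helicase gene Dhx40 1.43 and Hspa5, the chaperone of the endoplasmic reticulum, 1.38 (1.24 to 1.52). In negative macrophages these 4 genes had 1.82, 1.02, 1.34 and 1.31. Cd207, langerin, had 1.10 (0.84 to 1.38) in gated cells, 0.03 in negative macrophages and 0.85 in Clec4f/Timd4-positive macrophages. It was found in 27 and 29 cells, and its 5 richest cells held 58.4% and 52.3% of its UMIs. Pdgfc, a platelet-derived growth factor gene, had 1.03 (0.73 to 1.33), and 0.57 with a gate scaled to depth.

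Of 16 heat shock genes compared, 9 were past 2-fold higher in Mfap2-/- and none was lower, with a median of 1.07. Hsph1 stood at 206 and 742 CPM (log2 ratio 1.84), Dnaja1 at 399 and 1272 (1.67) and Hspa1b at 929 and 2005 (1.11). In negative macrophages the list's median was 1.17, and Hsph1 had 2.11 there. Immediate early genes such as Fos and Jun, which cells switch on within minutes of stress, had a median of 0.18, with 1 of 20 past 2-fold higher, Btg2 (1.01).

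MHC class II genes had a median of 0.73 in gated cells and 0.50 in negative macrophages. H2-Eb1 stood at 1293 and 2400 CPM (0.89) and H2-Aa at 1285 and 2105 (0.71), and the regulator Ciita was the 1 of 8 past 2-fold higher (1.71). The share of gated cells without an Atp6v0d2 UMI was 37.8% in Mfap2+/+ and 43.7% in Mfap2-/-. Of 10 cell cycle genes, 6 were past 2-fold higher, among them Mki67 at 15.9 and 47.0 CPM and Top2a at 8.59 and 23.5 CPM, with a median of 1.22. Mki67 had 24 UMIs in 16 Mfap2+/+ cells and 62 UMIs in 20 Mfap2-/- cells, where the highest cell had 27. At a minimum of 100 UMIs per gene the cell cycle median was 0.24. Kupffer identity genes had a median of -0.32, with 3 of 17 past 2-fold lower: Marco (-1.87), Fcna (-1.90) and C6 (-2.39). In negative macrophages Marco had -2.04. The highest gated cell had 82 of the 154 Marco UMIs in Mfap2+/+ and 29 of the 36 in Mfap2-/-. A Marco UMI was found in 42.5% and 9.2% of gated cells. B cells had one in 24.7% and 5.89%, so the background of Marco differed between the libraries too.

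Of 14 osteoclast-type genes, 1 was past 2-fold higher in Mfap2-/-, Dcstamp, which drives cell fusion (3.17, 2.08 to 5.09), and 1 was past 2-fold lower, Ctsk (-1.92). Dcstamp had 5 UMIs in Mfap2+/+ and 46 in Mfap2-/-, and 5 of its 8 positive Mfap2-/- cells held 93.5% of the latter. In negative macrophages Dcstamp had 2.76. Monocyte genes had a median of -0.43 with 2 of 13 past 2-fold lower, the integrin gene Itgam (-1.30) and Chil3 (-2.25). Chemokine genes had a median of -0.39, and 1 of 16 was past 2-fold in each direction. Interferon response genes had a median of 0.13, with 2 of 17 past 2-fold higher, among them Ifit2 (1.75), and 1 lower, Ifit1 (-1.12).

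RNA of other cell types differed between the libraries. The summed level of 10 mesenchymal marker genes was 666 CPM in the gated Mfap2+/+ cells and 134 CPM in the Mfap2-/- cells, with none of the 10 at 0 in either, against 428 and 380 CPM in negative macrophages. In Mfap2+/+, 2 cells held 86.1% of these UMIs. Of 9 mesenchymal genes compared, 8 were past 2-fold lower in Mfap2-/-. Summed neutrophil markers were at 2414 and 809 CPM, and 4 of 7 were past 2-fold lower. The neutrophil gene S100a8 had a median of 3 and 4 UMIs per cell, but 1 Mfap2+/+ cell had 657, and the 5 richest held 64.7%. Summed erythroid markers were at 588 and 162 CPM in gated cells and at 605 and 141 CPM in negative macrophages, and hepatocyte markers at 116 and 247 CPM against 274 and 316 CPM. Summed endothelial markers were at 410 and 419 CPM in gated cells, T and NK cell markers at 151 and 148, B and plasma cell markers at 486 and 663 and dendritic cell markers at 38.3 and 59.1. The 2 cells per library with over 5 mesenchymal UMIs were also left out. Genes past 2-fold lower in Mfap2-/- then went from 284 of 8725 (3.26%) to 162 of 8471 (1.91%), and the C3 ratio moved to 0.06. The part of the other cell types' RNA in the results was not tested.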

How the data were processed

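The deposited matrices hold raw UMI counts per gene and barcode, made by the authors from Chromium 3′ v3 libraries, per the labels' protocols. The file headers name Cell Ranger 7.0.1, while the submitters' processing notes list Cell Ranger 3.1.0, Seurat and mm10. Which of these made the files, and the counting of introns and strand, is not given in the sources used here. The lowest total per barcode was 500 UMIs. Of 32285 gene identifiers, 32235 (99.9%) occur in GENCODE M21.

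In each library the UMIs of a group's cells were added up and scaled to 1000000 (CPM). Intervals are exact Poisson for CPM, Clopper-Pearson for shares and exact conditional for ratios (scipy 1.17.1). Genes needed 20 UMIs over both sums, gate genes were left out of counts and lists, and a call means a ratio past 2-fold, a description without a test. Clec7a, Mx1 and Ahsp were not analysed here. Doublets were kept, since the gate does not remove them. Scrublet (scanpy 1.11.5) marked 1 Mfap2+/+ cell by its automatic threshold and so had not worked there. By rank, at 0.8% per 1000 cells, it marked 4 and 1 gated cells, and their removal is an alternative.

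Genes were named by rank: the 10 highest and 10 lowest ratios between genotypes, and the 15 highest and 10 lowest against negative macrophages by the smaller effect of the libraries. Of the genes so ranked or listed, some are not reported here. Candidates had at least 100 CPM and were not mitochondrial, ribosomal protein or haemoglobin genes. Examples from lists, single genes among the other lists included, were chosen with their values in view. The cells, lists and rules were chosen with earlier results of these data known. Interval steps were tested on simulated data.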

Additional observations from a re-analysis of the deposited data

Results flagged for a closer look

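Some values had opposite signs in the libraries, with both counting intervals away from 0, when the gated cells were set against negative macrophages. These differences between libraries were not tested, and with 1 library per genotype they cannot be told apart from differences between animals. The largest was in marker genes of another cell type: the median log2 ratio of 10 mesenchymal genes was 0.65 in Mfap2+/+ and -1.27 in Mfap2-/-, and 2 Mfap2+/+ cells held 86.1% of the Mfap2+/+ UMIs of these genes.

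Genes of the functional lists and named genes were searched if their mean level in the gated cells of the libraries was at least 100 CPM. Of these, 8 lay below negative macrophages in Mfap2+/+ and above them in Mfap2-/-. Cd5l had log2 ratios of -0.23 and 0.90, Lyz2, lysozyme, -0.22 and 0.51, Ccl6, a chemokine gene, -0.13 and 0.55, and Msr1, a scavenger receptor gene, -0.27 and 0.48. Il18bp had -0.35 and 0.43, Acp5 -0.14 and 0.43, Blvrb, biliverdin reductase B, -0.30 and 0.37, and Pltp, the phospholipid transfer protein, -0.35 and 0.28.

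The opposite order was seen in 5 genes by the same search. The interferon-induced genes Ifih1, Rsad2 and Cxcl10 had 0.31 and -0.84, 0.42 and -0.49, and 0.25 and -0.24, while the interferon response list of 17 genes had medians of -0.25 and -0.49, below 0 in both libraries. Hmox1, heme oxygenase, had 0.17 and -0.18, and the phosphatase gene Dusp1 0.052 and -0.19.

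Of the Mfap2+/+ barcodes outside the cell filter, which the comparisons did not use, 6 had 5 or more Atp6v0d2 and Mmp12 UMIs, above the limit of 3. In Mfap2-/- there were 0.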

How the results depend on the processing

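The member share kept its direction under all 8 alternatives, with log2 ratios from -1.10 to -0.43. Of 260 values of named genes between genotypes, 1 reversed: C3, to 0.060 without members with over 5 mesenchymal UMIs. No list median reversed with its interval away from 0. The cause of a moved value was not tested, unless the setting itself removes cells or genes.

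Genes past 2-fold higher in Mfap2-/- numbered 596 of 8725 (6.83%) without the 5 richest members per gene. At a minimum of 100 UMIs they numbered 74 of 3943 (1.88%). Genes past 2-fold lower, 284 of 8725 (3.26%) above, numbered 188 of 7329 (2.57%) with a gate at 10 UMIs. They were 174 of 8175 (2.13%) with a gate scaled to depth and 146 of 5609 (2.6%) after thinning cells to 5000 UMIs. Without the richest members they were 467 of 8725 (5.35%), and at 100 UMIs 56 of 3943 (1.42%). Without members rich in mesenchymal UMIs they were 162 of 8471 (1.91%), and in members with an Atp6v0d2 UMI alone 185 of 7253 (2.55%). Against negative macrophages, 89 were higher at 100 UMIs and 291 in members with an Atp6v0d2 UMI. Lower genes numbered 239 with a gate at 10, 43 after thinning, 37 at 100 UMIs and 278 with an Atp6v0d2 UMI. The number of genes compared changed with the setting in these counts too, so they cannot be set side by side as shares.

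List medians between genotypes moved as follows. With a gate at 10 they were 1.21 for MHC class II, 1.22 for heat shock, 0.28 for immediate early, 0.26 for cell cycle and -0.33 for pan-macrophage genes. The cell cycle median was 0.041 with the scaled gate, 0.24 with up to 1 Clec4f or Timd4 UMI and 0.24 at 100 UMIs. Heat shock was 1.23 with up to 1 Clec4f or Timd4 UMI, 1.40 without the richest members and 1.30 with an Atp6v0d2 UMI, where Kupffer identity was -0.0013 and immediate early 0.064.

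Against negative macrophages, the scar-associated median in Mfap2+/+ was 1.07 with a gate at 3, 1.55 with a gate at 10, 1.11 with up to 1 Clec4f or Timd4 UMI and 1.60 with an Atp6v0d2 UMI. A gate at 10 gave in Mfap2+/+ 0.11 for chemokines, -0.91 for MHC class II, -0.71 for heat shock and -0.46 for immediate early genes. The scaled gate gave -0.71 for MHC class II in Mfap2+/+ and -0.41 for immediate early in Mfap2-/-. Removing the highest doublet scores gave -0.45 for MHC class II in Mfap2-/-, up to 1 Clec4f or Timd4 UMI gave -0.06 for Kupffer identity in Mfap2+/+, and the mean of per-cell CPM gave -0.23 for immediate early genes in Mfap2+/+. Thinning gave 0.44 for lipid handling and 0.46 for cell cycle in Mfap2-/-. Members with an Atp6v0d2 UMI, a setting chosen after seeing the data like that on mesenchymal UMIs, gave -0.66 for Kupffer identity in Mfap2+/+ and 0.89 for lysosome in Mfap2-/-. They gave -0.39 and -0.45 for chemokines, -1.12 and -1.04 for MHC class II, -0.87 and -0.93 for heat shock and -0.46 and -0.55 for immediate early genes.

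No paired analysis was possible because each genotype has 1 library. With 127 and 87 cells, genes at a few CPM rest on few UMIs, so differences there were not detectable at this depth.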
